A study of Mus musculus with 15 samples.

Results

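The choroid plexus marker genes described here are Ttr, Kl, Otx2, Folr1, Clic6, Aqp1, Enpp2 and Igfbp2. They were chosen by name, as 8 of the 32657 gene features in the count tables, and each had a row in every table, although Otx2, Folr1 and Aqp1 had 0 counts in all 5 IP libraries. RNA-seq was done on ventral (vDG) and dorsal (dDG) dentate gyrus of adult mice aged 8 to 12 weeks. Every mouse carried the Drd3-Cre KI198 driver and the Rosa26-fsTRAP allele, which together put the tagged ribosomal protein EGFP-L10a into granule cells and mossy cells. These mice are the WT groups, and the conditional knockouts (cKO) also carried Htr4-Floxed, so Cre removes part of the serotonin receptor gene Htr4 in the driver's cells. TRAP IP is RNA pulled down on the tagged ribosomes of the driver's cells, and input is RNA of the cleared homogenate before the pull-down. The 15 libraries form 6 groups, since IP and input from vDG and input from dDG were each sequenced from 3 WT and 2 cKO pools. The sample records give 3 mice pooled per IP and 2 per input and call the inputs cortex, whereas the methods give 1 male and 1 female per pool and dissected dentate gyrus. The titles also say dentate gyrus, and that tissue is used here.

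The choroid plexus is the sheet of epithelium that hangs in the brain ventricles and secretes cerebrospinal fluid. Its epithelial cells make transthyretin, encoded by Ttr, as one of their most abundant messages, together with water and ion channels, folate receptors and the membrane form of Klotho. The plexus lies in the ventricle beside the hippocampus, and its messages are widely used to judge whether a hippocampal dissection included ventricular tissue. Several of the 8 genes are made elsewhere in the brain too: Kl by neurons, Enpp2 by oligodendrocytes, Igfbp2 by astrocytes and Aqp1 by red blood cells.

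Counts on genes ranged from 19039295 to 30451430 per library, and 23117 features had at least 1 count. Levels are given as CPM, the read count scaled to library size with TMM factors over the 15 libraries. The 10 granule cell markers summed to between 2630 and 4351 CPM in every library and the top 3 of them were Rfx3, Prox1 and Stxbp6, so the defining markers of dentate granule cells were present throughout. The gene count of Htr4 lay between 13.6 and 18.6 CPM in WT vDG libraries and between 26.7 and 29.8 CPM in cKO vDG libraries. It lay between 24.9 and 33.9 CPM in WT dDG and between 47.1 and 51.3 CPM in cKO dDG libraries. This count sums all exons of the gene and therefore does not check the deleted part. Because these are bulk samples, fewer cells of a type and less RNA per cell cannot be told apart. Nothing states that pools of a group were prepared on separate days, so each p-value measures only the spread between these pools.

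**Figure D1:**
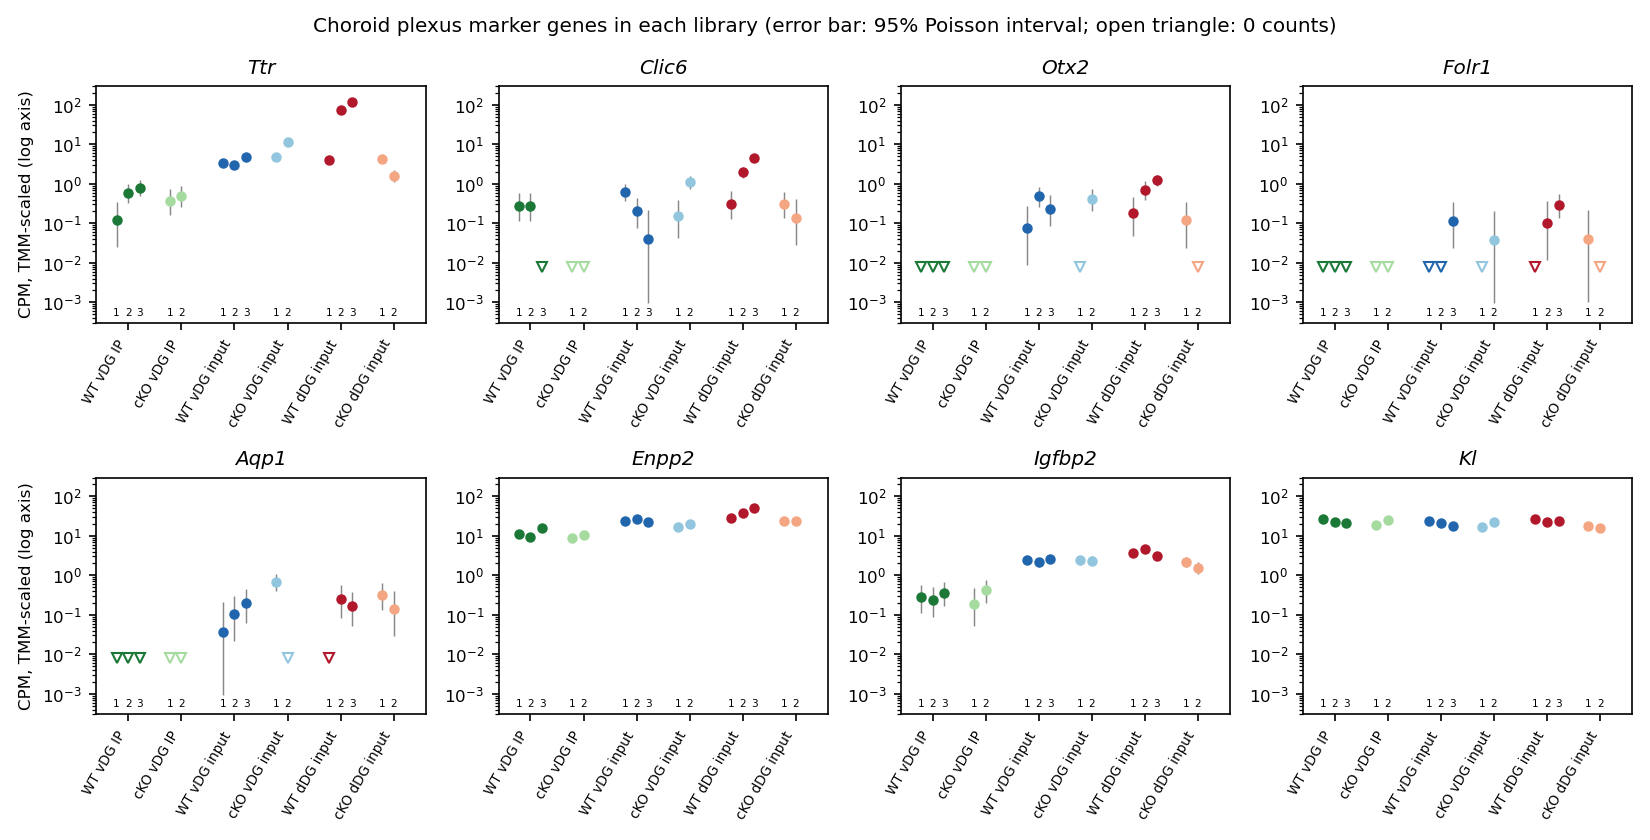
Level of each of the 8 genes in each of the 15 libraries, in TMM-scaled CPM on a log axis, with pools numbered as in the labels. Error bars are 95% Poisson intervals of the count, and an open triangle, drawn at a fixed height, marks a library with 0 counts. Ttr spans 0.120 to 120.3 CPM while Kl stays between 16.2 and 27.2 CPM.

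Ttr encodes the carrier of thyroid hormone and of the retinol-binding protein in cerebrospinal fluid. The gene lies on chromosome 18 from 20665280 to 20674321 (GRCm38, plus strand), with 1186 bases of exons. In the WT dDG inputs Ttr was at 4.13, 72.6 and 120.3 CPM in pools 1, 2 and 3. Pools 2 and 3 stood 17.6-fold and 29.1-fold above pool 1, and no other library came near them. Among the genes with at least 10 counts in 1 of the pools compared, these were the second and the first in size of change of 15646 and 15959 genes. The other groups held far less. The cKO dDG inputs were at 4.18 and 1.58 CPM, the WT vDG inputs at 3.35, 3.03 and 4.87 CPM, and the cKO vDG inputs at 4.72 and 11.5 CPM. Thus pool 1 of the WT dDG input lay within the range of the vDG inputs and next to the higher cKO dDG pool. Levels were lowest in the IP, at 0.120, 0.595 and 0.806 CPM in WT and 0.375 and 0.505 CPM in cKO, from 3 to 20 counts per library. The Poisson interval of the lowest, 0.0248 to 0.351 CPM, lay below that of every input.

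By group mean, Ttr ran from the cKO vDG IP (0.440 ± 0.0915 CPM, SD, n = 2) and WT vDG IP (0.507 ± 0.351, n = 3) through the cKO dDG input (2.88 ± 1.83, n = 2), WT vDG input (3.75 ± 0.986, n = 3) and cKO vDG input (8.11 ± 4.78, n = 2) to the WT dDG input (65.7 ± 58.4, n = 3). In that order the neighbours within the IP and within the first 3 input groups overlapped in their SDs, and the SD of the WT dDG input was nearly as large as its mean. Ttr took 6.46% of the summed CPM of the 8 genes in WT dDG pool 1, 51.5% in pool 2 and 59.1% in pool 3, against 0.317 to 2.15% in the IP.

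Clic6 (an intracellular chloride channel protein of secretory epithelia, on chromosome 16, 92485736 to 92541243, plus strand) followed Ttr across the WT dDG pools. It was at 0.314, 1.99 and 4.6 CPM in pools 1, 2 and 3, from 7, 40 and 140 counts. Otx2, the homeobox factor that choroid plexus epithelium keeps into adult life (chromosome 14, 48657677 to 48673819, minus strand), was at 0.179, 0.696 and 1.22 CPM there, from 4, 14 and 37 counts. Both genes thus had their lowest WT dDG level in pool 1 and their highest in pool 3. Folr1 (the folate receptor that carries folate across the plexus, on chromosome 7, 101858331 to 101870788, minus strand) had 0, 2 and 9 counts in the same pools. Its level in pool 3 was 0.296 CPM with an interval of 0.135 to 0.561 CPM. Ttr, Clic6, Otx2, Folr1 and Enpp2 were highest of all 15 libraries in WT dDG pool 3, whereas that library was the highest for 4.72% of all features with a count.

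Elsewhere Clic6, Otx2 and Folr1 had 30 counts or fewer per library. Clic6 had 17, 6 and 1 counts in the WT vDG inputs, 4 and 30 in the cKO vDG inputs, 8 and 3 in the cKO dDG inputs, 7, 7 and 0 in the WT IP and 0 in both cKO IPs. Otx2 had 2, 14 and 6 counts in the WT vDG inputs, 0 and 11 in the cKO vDG inputs, 3 and 0 in the cKO dDG inputs and 0 in all 5 IP libraries. Folr1 reached 3 counts in 1 WT vDG input and at most 1 in any cKO input, and was at 0 in all 5 IP libraries. Pool 2 of the cKO vDG input was the higher of its pair for Ttr, Clic6 and Otx2. Folr1 had 0 counts in pool 1 and 1 in pool 2, too few to order the pair. Aqp1 went the other way, with 18 counts in pool 1 and 0 in pool 2, as did Igfbp2 slightly. Otx2 shares 3.98% of its exon bases with Gm49154 and Otx2os1, so a few of its reads could belong to those genes.

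Relative to Ttr, the messages of Clic6, Otx2 and Folr1 came in similar proportion in the 2 pools with the most Ttr, while those of Enpp2, Igfbp2 and Kl did not. Per 100 counts of Ttr, WT dDG pool 2 held 2.74 of Clic6 (95% exact binomial interval 1.95 to 3.75) and pool 3 held 3.83 (3.21 to 4.53). For Otx2 the values were 0.959 (0.523 to 1.61) and 1.01 (0.711 to 1.4), and for Folr1 0.137 (0.0166 to 0.496) and 0.246 (0.112 to 0.467). The intervals overlapped between the pools for these 3 genes, and also for Aqp1, which had 5 counts in each. Those of Enpp2 did not, at 53.3 (48.8 to 58.2) in pool 2 and 42.3 (39.8 to 44.9) in pool 3. Nor did those of Igfbp2, at 6.23 (4.99 to 7.71) and 2.60 (2.09 to 3.18). In the cKO vDG input pool 2, the next richest in Ttr, Clic6 came to 9.62 per 100 (6.38 to 14.0) and Otx2 to 3.53 (1.74 to 6.40), both above the intervals of the WT dDG pools 2 and 3. Kl came to 660 per 100 in WT dDG pool 1, 30.5 in pool 2 and 19.2 in pool 3, and its intervals in pools 2 and 3 did not overlap either. These intervals cover counting error only.

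Aqp1, the water channel of the plexus surface that faces the ventricle (chromosome 6, 55336432 to 55348555, plus strand), did not follow Ttr. It had 0, 5 and 5 counts in the WT dDG inputs, 8 and 3 in the cKO dDG inputs, 1, 3 and 5 in the WT vDG inputs, and 18 and 0 in the cKO vDG inputs. The highest level, 0.691 CPM, was in pool 1 of the cKO vDG input, where Ttr was at 4.72 CPM, and the pool with 11.5 CPM of Ttr had none. All 5 IP libraries were at 0.

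Enpp2 encodes autotaxin, the secreted enzyme that makes lysophosphatidic acid (chromosome 15, 54838901 to 54952892, minus strand). The WT dDG inputs were at 28.4, 38.7 and 50.9 CPM and the cKO dDG inputs at 24.0 and 24.2 CPM. The WT vDG inputs were at 24.0, 27.0 and 22.9 CPM and the cKO vDG inputs at 16.4 and 19.7 CPM. In the IP Enpp2 was at 11.1, 9.28 and 15.7 CPM in WT and at 8.72 and 10.4 CPM in cKO. WT dDG pool 3 thus exceeded pool 1 by 1.79-fold for Enpp2, against 29.1-fold for Ttr, and no IP library reached the lowest input. Exons of the antisense gene Gm26684 cover 5.97% of its exon bases, and reads of the 2 genes cannot be told apart without strand.

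Igfbp2, a secreted binder of insulin-like growth factors (chromosome 1, 72824503 to 72852474, plus strand), did not share the order of Ttr. It was at 3.72, 4.52 and 3.12 CPM in the WT dDG inputs and at 2.21 and 1.54 CPM in the cKO dDG inputs. It was at 2.46, 2.13 and 2.65 CPM in the WT vDG inputs and at 2.42 and 2.36 CPM in the cKO vDG inputs. In the IP it was at 0.280, 0.238 and 0.363 CPM in WT and 0.188 and 0.420 CPM in cKO. The pool with the most Ttr had the least Igfbp2 of the 3 WT dDG pools, and every input lay above every IP.

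Kl encodes Klotho, the co-receptor for FGF23 that is also shed into cerebrospinal fluid (chromosome 5, 150952607 to 150993817, plus strand). It was at 27.2, 22.2 and 23.1 CPM in the WT dDG inputs, at 18.2 and 16.2 CPM in the cKO dDG inputs, at 24.2, 21.4 and 17.7 CPM in the WT vDG inputs and at 17.1 and 22.8 CPM in the cKO vDG inputs. The WT IP was at 26.1, 22.7 and 20.6 CPM and the cKO IP at 18.8 and 24.7 CPM. Kl was thus abundant in every library, IP included, and its highest library was WT dDG pool 1, which had the least Ttr of its group. Its 6 group means ran from 17.2 ± 1.41 CPM (SD, n = 2) in the cKO dDG input to 24.2 ± 2.70 CPM (n = 3) in the WT dDG input, and the SDs of neighbours in that order overlapped.

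Levels of different genes can be set side by side only per length of exon. In CPM per kilobase, Ttr led in the WT dDG input (55.4 ± 49.2, SD, n = 3), ahead of Enpp2 (6.80 ± 1.95), Kl (2.59 ± 0.289) and Igfbp2 (2.05 ± 0.380), and Clic6, Otx2, Folr1 and Aqp1 were at 0.588 or less. In the WT IP the order was Kl (2.48 ± 0.295), Enpp2 (2.08 ± 0.574), Ttr (0.427 ± 0.296) and Igfbp2 (0.159 ± 0.0343), with Clic6 at 0.0475 and the other 3 at 0. Kl was also first in the cKO IP, at 2.33 ± 0.449 (n = 2).

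To set the spread among pools beside region and genotype, the SD of log2 CPM within groups was compared with the SD of the 6 group means. Of the 8 genes, 6 passed the filter on low counts, Folr1 and Aqp1 being too low. For Ttr the within-group SD was 1.42, larger than that of 99.9% of the 16493 genes that passed, whose median was 0.231. Clic6 at 1.34 lay above the same share of genes, and Otx2 at 0.988 above 98.3%. The SDs of their group means were 2.33, 1.42 and 1.17, so the within-group SD came to 0.611 of that of the group means for Ttr, 0.944 for Clic6 and 0.841 for Otx2, beside a median ratio of 0.772 over all genes that passed. Ttr thus varied widely both within and between groups.

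Enpp2 and Igfbp2 differed more between groups than within them, with group-mean SDs of 0.739 and 1.49 against within-group SDs of 0.288 and 0.304. For both, the gap lay mainly between IP and input, as the levels above show. Kl had the smallest spread of both kinds, 0.206 within groups and 0.174 between group means, against a median group-mean SD of 0.303 over all genes that passed. The within-group SD of Ttr was 0.784 with WT dDG pool 1 left out and 0.815 with pools 2 and 3 left out, both still above the median of all genes.

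**Figure D2:**
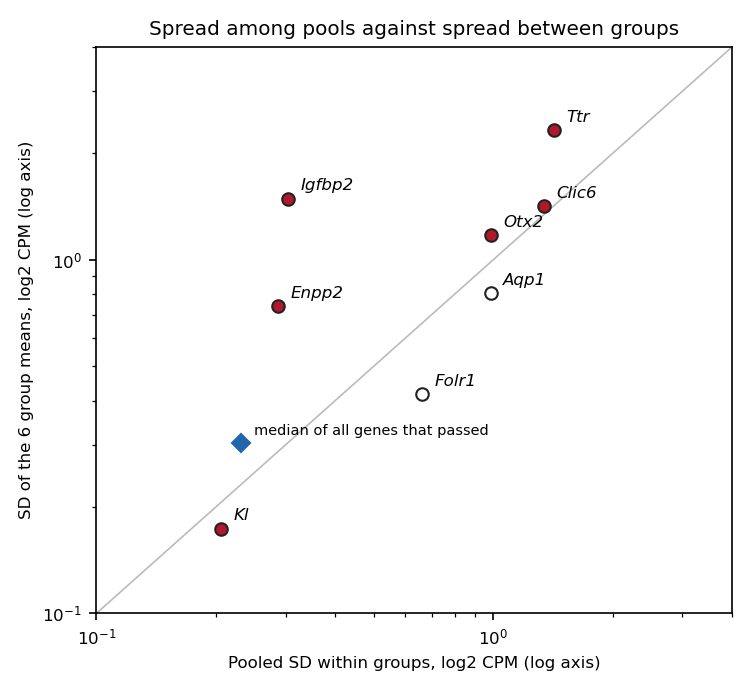
For each gene, the pooled SD of log2 CPM within groups (x axis) and the SD of the 6 group means (y axis), both on log axes. Filled points passed the filter on low counts and open points did not. The diamond is the median of all 16493 genes that passed, at 0.231 and 0.303. Ttr, Clic6 and Otx2 lie far to the right of it, while Kl lies slightly below and to the left.

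The first comparison asked which messages are carried on the tagged ribosomes, by setting vDG IP against vDG input. Genes were called enriched when at least 25% higher in the IP and depleted when their level there was under 0.5 of the input, in both cases at a false discovery rate (FDR, the Benjamini-Hochberg adjusted p of edgeR's quasi-likelihood test) under 0.05. In WT, 4 of the 8 genes were tested, 3 were depleted and none was enriched, where 11.4% of the 15011 genes tested were depleted and 7.72% enriched. Igfbp2, at 6 to 9 counts per IP pool, passed the filter on low counts only through the input pools. Ttr, with 3 counts in IP pool 1, did not pass on its IP pools alone. The count of depleted members therefore supports no direction. Ttr was 7.67-fold lower in the IP (log2 fold change -2.94 ± 0.45, SE, FDR = 0.000314), Igfbp2 8.46-fold lower (-3.08 ± 0.40, FDR = 7.56e-05) and Enpp2 2.14-fold lower (-1.10 ± 0.18, FDR = 0.000571). Enpp2 kept its FDR without WT IP pool 2, but at -0.94 it was then just short of the fold required.

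In cKO, 4 genes were tested and 2 were depleted, against 10.7% of 15126 genes, and none was enriched, against 11.4%. The 2 depleted genes, at 8 and 12 (Ttr) and 4 and 10 (Igfbp2) counts in the IP, did not pass the filter on their IP pools alone. This count, too, supports no direction. Ttr was 18.5-fold lower in the IP (-4.21 ± 0.49, FDR = 8.18e-05) and Igfbp2 7.80-fold lower (-2.96 ± 0.59, FDR = 0.00308). Enpp2 was 1.92-fold lower (-0.94 ± 0.19, FDR = 0.00326), short of the fold required for depletion. All input pools of these 3 genes lay above all IP pools in both genotypes, as did those of 20.7% of all genes tested in WT and 33% in cKO. The size of the Ttr value in cKO rests in part on input pool 2, without which it was -3.43.

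Kl behaved differently. Its log2 fold change was 0.07 ± 0.16 in WT (FDR = 0.782, interval -0.25 to 0.39) and 0.10 ± 0.19 in cKO (FDR = 0.744, interval -0.27 to 0.46), with overlapping pools. These 95% intervals do not reach the depletion seen for Ttr, Igfbp2 or Enpp2 in WT. Over all genes tested the median was 0.00 in WT and -0.03 in cKO. Of the 10 granule cell markers, 4 were enriched in WT and 7 in cKO with medians of 0.30 and 0.62, Dock10 and Dsp among them. All 10 astrocyte markers and 11 of 12 oligodendrocyte markers were depleted in each genotype, with medians of -2.62 and -2.77 in WT and -2.70 and -2.56 in cKO. Other lists also had medians nearer 0: the endothelial and mural markers were at -0.16 in WT and -0.20 in cKO, with 2 of 11 depleted in each, and the ependymal markers at 0.19 in WT and -0.34 in cKO, with 3 and 4 tested. The values for Kl lay above both glial medians and below the granule cell median in each genotype, and in cKO that median lay outside the interval of Kl. A value near 0 does not by itself place Kl in a cell type.

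For the genes at 0 in all IP pools of a genotype, only bounds can be given, with 3 counts over the group as the floor. Otx2 was at least 6.74-fold lower in IP than in input in WT and at least 3.11-fold lower in cKO. Clic6 was at least 9.61-fold lower in the cKO IP, but in WT it had 14 counts over the IP pools against 24 over the input pools and was not tested. Aqp1 was at least 2.76-fold lower in WT and 5.09-fold lower in cKO, the latter resting on the 18 counts of 1 input pool. All 11 Otx2 counts and 30 of the 34 Clic6 counts of the cKO input came from pool 2, without which Otx2 has no bound and Clic6 was at least 2.31-fold lower. In WT the bounds were 3.81-fold for Otx2 without input pool 2 and 1.79-fold for Aqp1 without input pool 3. Folr1 was at or under the floor on both sides, so no fold is given.

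**Figure D3:**
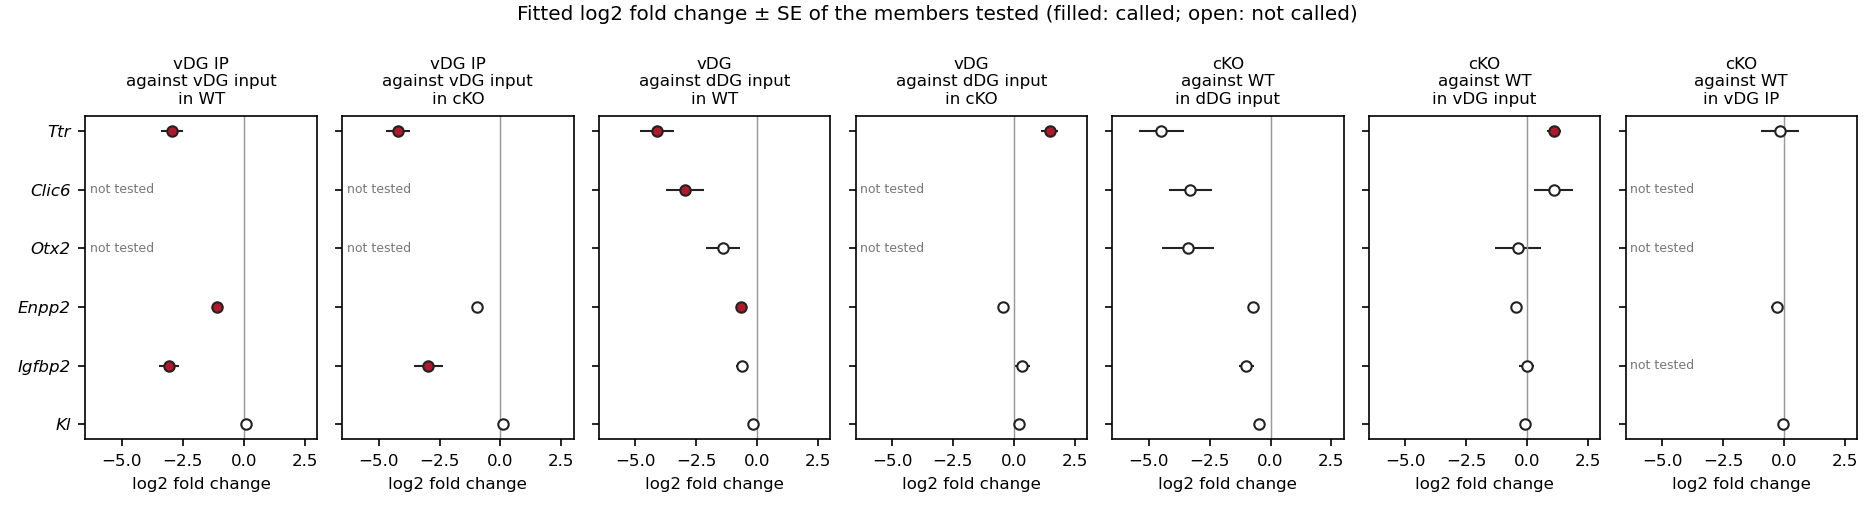
Fitted log2 fold change ± SE (x axis) of the members that could be tested, in 7 pairwise comparisons (panels). Filled points passed the thresholds of that comparison and open points did not. Kl sits near 0 in the IP against input panels, where Ttr lies at -2.94 in WT and -4.21 in cKO.

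The next comparison set ventral against dorsal input within a genotype. In WT, 3 of 6 genes tested were lower in vDG at an FDR under 0.05 and none was higher, where 15.3% of 15412 genes were called in either direction. Ttr was 17.4-fold lower in vDG (-4.12 ± 0.69, FDR = 0.000482), Clic6 7.76-fold lower (-2.96 ± 0.78, FDR = 0.0146) and Enpp2 1.58-fold lower (-0.66 ± 0.17, FDR = 0.0137). The Ttr and Clic6 pools of the regions overlapped, since WT dDG pool 1 lay within the WT vDG range for both. The pools of Enpp2 and Igfbp2 lay lower in vDG without overlap, as for 15.2% of all genes. Otx2 (-1.39 ± 0.69, FDR = 0.208), Igfbp2 (-0.63 ± 0.26, FDR = 0.115) and Kl (-0.18 ± 0.15, FDR = 0.479) were not called.

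Pools 2 and 3 of the dDG input were picked after their Ttr levels were seen, so the values without them are a description of pool 1 alone. With both left out, the differences were -0.13 for Ttr (FDR = 0.864), -0.08 for Clic6 (FDR = 0.978) and -0.20 for Enpp2 (FDR = 0.622). Clic6 and Enpp2 also lost their call without dDG pool 3 alone (FDR = 0.130 and 0.0850) or without vDG pool 3 (FDR = 0.0685 and 0.0706), and Clic6 also without vDG pool 2 (FDR = 0.10). Ttr kept it with any 1 pool left out.

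In cKO the sign for Ttr was the opposite. Of 4 genes tested, 1 was higher in vDG, Ttr at 2.76-fold (1.46 ± 0.36, FDR = 0.00770), where 17% of 15505 genes were called. Enpp2 was at -0.43 ± 0.15 (FDR = 0.0535), Igfbp2 at 0.33 ± 0.34 (FDR = 0.551) and Kl at 0.21 ± 0.16 (FDR = 0.430). Both vDG pools exceeded both dDG pools for Ttr, as for 30.6% of all genes. Without cKO vDG pool 2 the Ttr difference was 0.67 (FDR = 0.109), and DESeq2 did not call it (FDR = 0.271).

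The study then asked what loss of Htr4 changed. In the vDG IP, called at an FDR under 0.1, none of the 3 genes tested was called, where 0.42% of 14300 genes were. Ttr differed by -0.16 ± 0.79 (FDR = 0.958), Kl by -0.06 ± 0.18 (FDR = 0.932) and Enpp2 by -0.29 ± 0.24 (FDR = 0.663). The interval for Kl ran from -0.42 to 0.31, while that for Ttr, from -1.70 to 1.38, also covers changes of several fold. Over all genes 60 were called here, 1674 had an unadjusted p under 0.05 and DESeq2 called 353.

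In the vDG input 1 of 6 genes tested was called, against 2.44% of 15786 genes. Ttr was 2.15-fold higher in cKO (1.11 ± 0.29, FDR = 0.0372). The call rested on pool 2 of the cKO, which was at 11.5 CPM while pool 1 at 4.72 CPM lay inside the WT range of 3.03 to 4.87 CPM. Without pool 2 the difference was 0.32 (FDR = 0.759), without WT pool 2 the FDR was 0.149, and with all 15 libraries in 1 fit it was 0.569. Enpp2 had both cKO pools below all WT pools, as had 17.1% of all genes, but was not called (-0.46 ± 0.16, FDR = 0.148), and Clic6, Otx2, Igfbp2 and Kl had FDRs from 0.555 to 0.977.

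In the dDG input none of the 6 genes tested was called, but only 5 of 15383 genes (0.0325%) were, with 1881 at an unadjusted p under 0.05 and 188 called by DESeq2. The largest differences were those of Ttr at 22.3-fold lower in cKO (-4.48 ± 0.94, FDR = 0.133), Otx2 at 10.5-fold (-3.39 ± 1.05, FDR = 0.210) and Clic6 at 9.85-fold (-3.30 ± 0.88, FDR = 0.171). Igfbp2 (-1.0 ± 0.31, FDR = 0.210), Enpp2 (-0.71 ± 0.19, FDR = 0.171) and Kl (-0.49 ± 0.15, FDR = 0.200) were at smaller differences. For Kl, Otx2, Enpp2 and Igfbp2 both cKO pools lay below all 3 WT pools, as for 15.5% of all genes tested, whereas for Ttr and Clic6 the higher cKO pool lay above WT pool 1. Otx2 and Clic6 passed the filter on low counts only through the WT pools, so their direction supports nothing.

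These values, too, moved with the pools kept. Without WT dDG pools 2 and 3, again picked on their Ttr levels and leaving 1 WT pool, the Ttr difference was -0.49 (FDR = 0.404) and the Enpp2 difference -0.23 (FDR = 0.486). Without WT pool 1, Ttr at -5.03 (FDR = 4.45e-07), Clic6 (FDR = 0.00909) and Enpp2 (FDR = 0.0191) were called. The difference between regions in the genotype effect was itself tested: for Ttr it was 5.58 ± 1.10 (FDR = 0.0999), and none of 16306 genes was called (0%), with 2010 at an unadjusted p under 0.05 and 256 called by DESeq2. The difference between IP and input in the genotype effect was -1.25 ± 0.76 for Ttr and 0.05 ± 0.27 for Kl, with no gene of 16093 called (0%) by edgeR or DESeq2 and 497 at an unadjusted p under 0.05.

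Markers of other tissues in the same dissections were set beside these results. Of 28 further choroid plexus genes, 20 had at least 10 counts in 1 of the WT dDG pools, and for 15 of them (75.0%) pools 2 and 3 both lay above pool 1, as for 4 of 6 members (66.7%) and 37.9% of all 16103 such genes. Slc4a5, a bicarbonate transporter of the plexus, was at 0.0897, 0.795 and 1.51 CPM in pools 1, 2 and 3, and the potassium channel subunit Kcne2 at 0.0897, 0.298 and 0.657 CPM. Tmem72, a membrane protein of the plexus, was at 0, 0.199 and 0.822 CPM. Sostdc1, a secreted BMP antagonist, was at 1.48, 3.63 and 4.11 CPM. The tight junction gene Cldn2 was at 0.0449, 0.547 and 1.28 CPM, but reached a mean of 1.22 CPM in the WT IP. Slc4a5 and Tmem72 were thus near 0 in pool 1. Both of these, Kcne2, Cldn2 and the members Clic6 and Otx2 reached 10 counts only in pools 2 or 3. Such genes entered through the pools where they were high, so the shares of 75.0% and 66.7% support no direction. The same limit holds for the order of the pools. The order of Ttr, with pool 3 above pool 2 and pool 2 above pool 1, was shared by 10 of the 20 genes, beside 22.4% of all genes, while another 5 were highest in pool 2, among them Slc13a4, a sulfate transporter, at 0.852, 2.34 and 1.18 CPM.

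**Figure D4:**
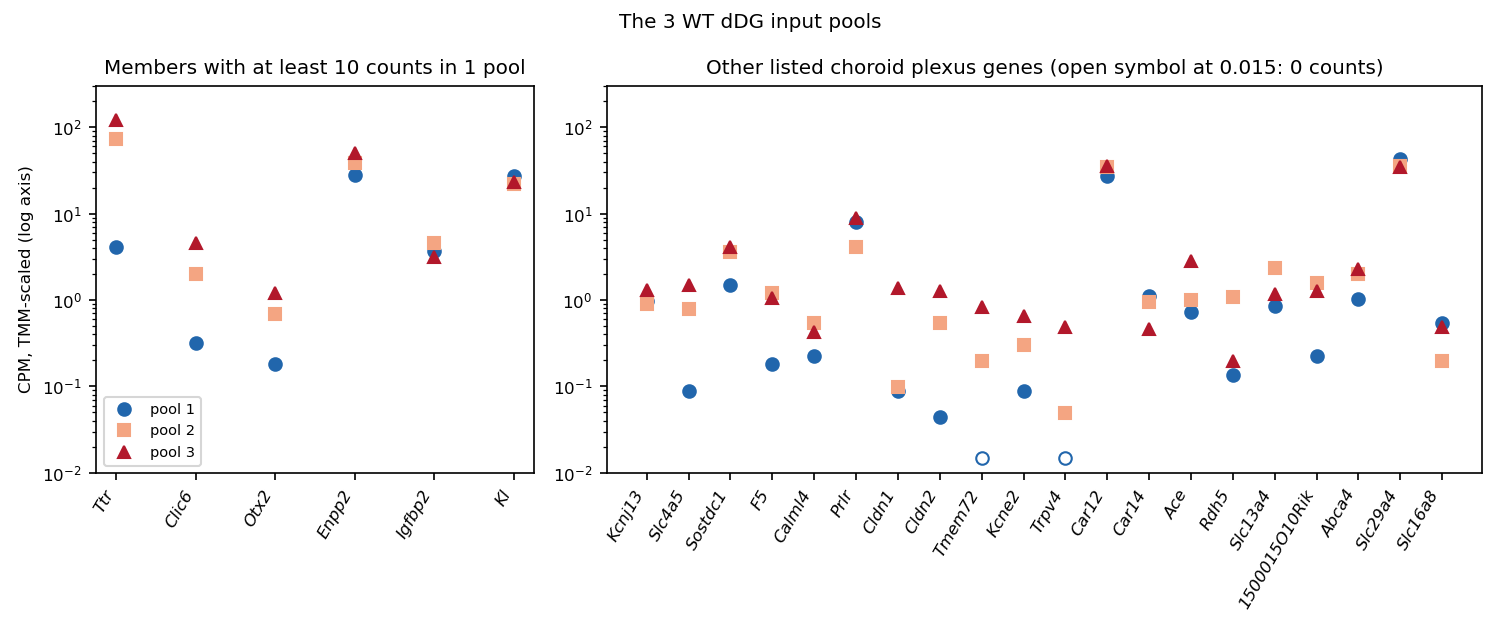
Level in the 3 WT dDG input pools, in TMM-scaled CPM on a log axis, of the 6 members (left) and the 20 other listed choroid plexus genes (right) with at least 10 counts in 1 pool. Open symbols at a fixed height mark 0 counts. Some genes reached 10 counts only in pools 2 or 3. Ttr, Clic6 and Otx2 are higher in pools 2 and 3 than in pool 1, as are 15 of the 20 other genes, while Kl, Car12 and Slc29a4 are high in all 3 pools.

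The other 5 of the 20 did not have both pools above pool 1, namely Kcnj13, Prlr, Car14, Slc16a8 and Slc29a4. Prlr, the prolactin receptor, was at 7.94, 4.08 and 8.84 CPM in pools 1, 2 and 3. Car12, a carbonic anhydrase, was in the order of Ttr at 27.1, 34.9 and 35.2 CPM but averaged 71.7 CPM in the WT IP and 32.4 CPM in the WT dDG input, and Slc29a4, a monoamine transporter, 32.2 and 37.6 CPM, so like Kl both were abundant in the IP. Of the 28 genes, 1 of 11 tested was depleted in the WT IP, Kcnj13 (-2.41 ± 0.73, FDR = 0.0265), where 11.4% of all genes were. The list median was -0.02. Kcnj13 had 3, 0 and 6 counts in the WT IP and passed the filter on low counts only through the input, so its direction supports nothing. In the cKO IP 2 of 12 were depleted (Kcnj13 and Slc13a4) and Car12 was enriched, where 10.7% of all genes were depleted and 11.4% enriched. The list median was -0.86 beside -0.03 for all genes. Kcnj13, at 3 and 0 counts in the cKO IP, again passed only through the input. In the WT vDG against dDG comparison 1 of 14 was called higher and 4 were called lower, where 15.3% of all genes were called, and 4 had higher and 10 lower values, with a list median of -0.84 beside -0.01 for all genes. In the dDG input none of 16 was called between genotypes, and 15 had lower and 1 higher values in cKO, where 53.6% of all genes had lower values. Some of the 16, such as Slc4a5, F5 and Cldn2, passed the filter on low counts only through WT pools 2 and 3, so this count supports no direction.

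The sum of the 28 further plexus genes, most of it Car12 and Slc29a4, was 86.5, 92.8 and 101.1 CPM in WT dDG pools 1, 2 and 3, a 1.17-fold range, beside 3.19-fold for the sum of the 8 members. In the same pools the 12 oligodendrocyte markers summed to 588, 608 and 586 CPM and the 10 astrocyte markers to 5554, 4314 and 4260 CPM. The 11 meningeal markers summed to 43.5, 71.0 and 44.3 CPM, highest in pool 2, and the 8 ependymal markers to 4.44, 7.50 and 8.02 CPM, in the order of Ttr. The 13 endothelial and mural markers ran the other way, at 86.5, 53.7 and 31.6 CPM. In the vDG inputs the cKO pool with more Ttr also had more of the meningeal sum, 64.0 against 42.4 CPM. Igf2, on the meningeal list and on that of insulin-like growth factors, was higher in cKO there (1.10 ± 0.20, FDR = 0.00515). Of the astrocyte list, all 10 had lower values in cKO vDG input and 4 were called, with a median of -0.60 beside 0.01 for all genes. Over all genes 48.6% had lower values and 2.44% were called. The part of these tissues in the results for the 8 genes was not tested.

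For Enpp2 and Igfbp2 the glial lists bear on the levels as follows. In WT vDG the oligodendrocyte markers summed to between 417 and 519 CPM in input and between 179 and 221 CPM in IP. The myelin gene Mbp was at 195 CPM in input and 164 CPM in IP (means, n = 3). The astrocyte markers summed to between 4658 and 5305 CPM in input and between 1269 and 1898 CPM in IP. Both sums were lower in IP than in input, like Enpp2 and Igfbp2, and their part in those values was not tested.

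The genes that work with the members were taken from short lists. Of 11 genes around Klotho, 7 were tested between IP and input in WT and 2 were depleted, where 11.4% of all genes were. The 2 were the FGF receptors Fgfr2 (-2.08 ± 0.20, FDR = 4.46e-06) and Fgfr3 (-2.69 ± 0.20, FDR = 2.49e-07). Fgfr1, the receptor with which Klotho binds FGF23, was at -0.35 ± 0.16 (FDR = 0.130) and averaged 23.2 CPM in the WT IP. The protease gene Adam10, whose product sheds Klotho, was at -0.12 ± 0.13 (FDR = 0.534). The related co-receptor gene Klb averaged 0.174 CPM in the WT IP and did not pass the filter on low counts.

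Of 8 genes of thyroid hormone and retinol transport, 2 were depleted in the WT IP, where 11.4% of all genes were. The 2 were Dio2, the deiodinase that activates thyroid hormone (-3.65 ± 0.24, FDR = 7.49e-08), and the transporter Slco1c1 (-1.37 ± 0.18, FDR = 9.03e-05). Rbp4, whose product travels bound to transthyretin, was lower in vDG than in dDG input in both genotypes (-2.05 ± 0.38, FDR = 0.00123, in WT and -1.53 ± 0.46, FDR = 0.0235, in cKO). Thrb, a thyroid hormone receptor, was higher in vDG in both (0.79 ± 0.11 and 0.64 ± 0.12). Dio2 was lower in cKO vDG input (-0.69 ± 0.14, FDR = 0.00760).

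Of 9 insulin-like growth factor genes, 3 were depleted in the WT IP (Igf1, Igf2 and Igfbp4) and 1 was enriched, the receptor Igf2r (0.85 ± 0.18, FDR = 0.00329). Over all genes 11.4% were depleted and 7.72% enriched. Unlike Igfbp2, the binding protein gene Igfbp3 did not differ between IP and input in WT beyond its error (-0.13 ± 0.18, FDR = 0.633) and was higher in vDG than in dDG input (1.33 ± 0.19, FDR = 9.66e-05). Of 9 genes of lysophosphatidic acid signalling, the receptor Lpar1 (-2.22 ± 0.35) and the phosphatase Plpp3 (-2.62 ± 0.20) were depleted in the WT IP like Enpp2. None of the 4 folate genes tested was called in any comparison, although in cKO all 4 had lower values in the IP with a list median of -0.90, and the sum of the 5 listed stayed between 14.7 and 27.6 CPM in all libraries while Folr1 was near 0.

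The genes most like Ttr were named by Pearson's r of log2 CPM over the 15 libraries, among 10371 genes with a mean of at least 5 CPM. Llgl1 came first (r = 0.900), Enpp2 second (r = 0.876), then Ick (0.862), Msl1 (0.859) and Rcan3 (0.859). Llgl1, a polarity gene, nevertheless moved little, from 7.29 CPM in WT IP pool 1 to 15.4 CPM in WT dDG pool 2. For Kl the closest were Poll (0.808), Gemin2 (0.768), Mycn (0.764), Mbd1 (0.742) and Stk11 (0.725). The libraries share preparation and group structure, so these values describe the 15 libraries only. Of the members, only Ttr, Kl and Enpp2 reached the 5 CPM needed to enter this search.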

How the data were processed

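The counts were deposited by the authors per library. Per the study's methods, RNA was amplified (NuGEN Ovation V2), and reads were trimmed, aligned to mm10 with STAR 2.4.2a, freed of duplicates with SAMtools 0.1.19-444 and counted with HTSeq, without normalization. Between 12.6 and 20.9% of reads lay on no feature. Amplification and duplicate removal can change the levels of short, abundant messages. The authors' tables of comparisons (fold changes, p-values and 25 columns of normalized counts) were not used here. Groups came from the sample titles.

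Counts were tested with edgeR 4.0.16 in R 4.3.3 (TMM, filterByExpr, two-sided quasi-likelihood F-test, compared groups only), with Benjamini-Hochberg adjustment over all genes tested. The FDR threshold was 0.1 for the genotype comparison of IP libraries and 0.05 for all others, after the study. SEs came from the F statistics. DESeq2 1.42.0 was an alternative. SDs and correlations used log2 CPM with a prior count of 2. Positions came from GENCODE on GRCm38. The scripts were tested on simulated data. Members, lists and tests were chosen with earlier results of these data known. Named were the members, and per list up to 4 called genes of largest change and up to 3 most abundant. The other genes named (Slc4a5, Tmem72, Kcne2, Car14, Slc16a8, F5, Klb, Igfbp3 in the IP) were chosen after their values were seen. Alternatives covered scaling, filters, fits, the replicate block and left-out pools.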

Additional observations from a re-analysis of the deposited data

How the results depend on the processing

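Counts of members called moved with the filter on low counts and with which pools were kept. For cKO against WT, the vDG input count of 1 fell to 0 with all 15 libraries in 1 fit, and the dDG input count of 0 became 1 with DESeq2, 4 with no filter on low counts and 1 without WT dDG pools 2 and 3 together (Kl, whose highest library is the 1 WT pool left), an alternative added after seeing the data. For IP against input, the WT count of 3 became 1 when at least 10 counts were required in every library, which drops Ttr and Igfbp2, and the cKO count of 2 became 0 under that rule and 4 with no filter. For vDG against dDG input, the WT count of 3 became 0 without pools 2 and 3 together, and the cKO count of 1 became 0 with DESeq2 or all 15 libraries in 1 fit and 2 with DESeq2 size factors, the replicate block or an FDR of 0.1. The genotype by region count of 0 became 2 with no filter, and 1 with the replicate block (Ttr, 4.87, FDR = 0.0442) or an FDR of 0.1. With 1 pool left out at a time, the counts ranged from 0 to 1 for cKO against WT in vDG input and 0 to 3 in dDG input, 2 to 3 for IP against input in WT and 2 to 4 in cKO, 1 to 3 for WT vDG against dDG, were 1 each time in cKO (Ttr, but Enpp2 alone at -0.58, FDR = 0.0159, without vDG pool 2), and ranged from 0 to 1 for the interaction with region. An arm left with 1 pool is assumed to vary like the other groups. Except where named, the cause was not tested.

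Signs turned only for differences that were not called. Kl turned in IP against input with library size alone in place of TMM (-0.060 in WT and -0.076 in cKO) and in the interaction with fraction (-0.017). With the replicate block, Ttr turned to 0.52 in the IP and Igfbp2 to 0.044 in the vDG input, both for cKO against WT. Without WT dDG pools 2 and 3 together, Otx2 turned to 0.56 for WT vDG against dDG and Enpp2 to -0.24 in the interaction with region. With 1 pool left out, the values of the differences that turned ranged, for cKO against WT, from -0.62 to 0.32 (Ttr) and -0.27 to 0.12 (Kl) in the IP, and from -0.94 to 1.89 (Clic6), -0.11 to 0.045 (Igfbp2), -0.32 to 0.10 (Kl) and -5.87 to 0.60 (Otx2) in the vDG input. They ranged from -0.030 to 0.20 in WT and -0.11 to 0.32 in cKO for Kl in IP against input, from -0.026 to 0.38 for Kl in cKO vDG against dDG, from -0.55 to 0.59 (Igfbp2) and -0.16 to 0.28 (Kl) in the interaction with fraction, and from -0.0012 to 0.42 (Enpp2) and -2.40 to 6.80 (Otx2) in the interaction with region. Of the 606 values of single members under alternatives, 540 kept direction and side, 21 passed the threshold newly, 17 lost it and 28 turned.

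The replicate numbers were not taken to pair the pools. The study's methods draw input from the same lysate as the IP, but no label ties the numbers. Deviations of same-numbered pools correlated at 0.46, -0.16 and -0.33 for WT IP and input, 0.44 for cKO IP and input, 0.38, -0.11 and 0.22 for WT vDG and dDG and 0.16 for cKO vDG and dDG, and were below 0 for all genotype pairs. Titles number the cKO dDG pools 1 and 2 but their files 2 and 3, so block values with these pools may be mismatched. The replicate block changed no other count of members called. Depth limits Folr1, Aqp1, Otx2 and Clic6, which had at most 9, 18, 37 and 140 counts in any library, and in the IP 3 counts corresponded to about 0.12 CPM for Ttr.

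Over all genes, the counts called for cKO against WT moved from 60 to between 0 (FDR of 0.05) and 470 (all 15 libraries in 1 fit) in the IP, from 385 to between 6 (without cKO pool 1) and 687 (FDR of 0.1) in the vDG input, and from 5 to between 0 (all 15 libraries) and 1111 (without WT pools 2 and 3) in the dDG input. For IP against input they ranged from 1682 to 4286 around 2870 in WT and from 1894 to 3942 around 3343 in cKO, for vDG against dDG from 1641 to 3100 around 2365 in WT and from 1360 to 3859 around 2642 in cKO, and for the interactions from 0 up to 362 (region) and 12 (fraction), both highest with no filter.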
